A study of Caenorhabditis elegans with 10 samples.

Results

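The genes described here are 39 genes of DNA replication and entry into S phase, out of 20182 genes counted in ribosome footprints of the nematode Caenorhabditis elegans. They were chosen by name for their known roles, and the symbols were matched to the WormBase identifiers of the count table, in which all 39 were found. Footprints are the short stretches of mRNA that ribosomes cover while translating, so their number reflects both the amount of an mRNA and how densely it is translated. The material was whole animals of the wild-type strain N2, with no transgene and no treatment. Starved, synchronised first-stage larvae were put on food, and 1 library was made at each of 10 times, 18, 20, 22, 24, 26, 28, 30, 32, 34 and 36 h later. No time had a replicate. Library totals ran from 16723638 counts at 24 h to 33696423 counts at 26 h.

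Replication begins when the origin recognition complex (ORC), with CDC-6 and CDT-1, loads the MCM2-7 helicase onto DNA in G1. Cyclin-dependent kinases and the GINS complex then switch the helicase on, and primase, polymerases, the sliding clamp PCNA and its loader RFC copy the strands, using nucleotides whose supply ribonucleotide reductase limits. Whether a cell enters this phase is set by cyclin D with CDK-4, cyclin E with CDK-2, the retinoblastoma protein LIN-35, E2F factors and the inhibitor CKI-1. In a growing larva, DNA is copied in dividing epidermal, vulval and gonadal cells, in the proliferating germline, and in intestinal nuclei that become polyploid.

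Levels are given as CPM, counts per 1000000 counts of the library total. A curve with a straight line and an 8 h wave was fitted to all 13958 genes with enough counts by edgeR's quasi-likelihood method, after TMM scaling of the libraries. All 39 genes passed the filter. Peak-to-trough differences describe the wave and trends describe the line over the 18 h, both in log2 units with a standard error. A gene was called when its p, adjusted over all tested genes, was under 0.05 and the change was at least 1 log2. With 1 library at each time, the errors and p-values measure how far the libraries scatter about the fitted curve, and no label states that separate cultures were used. In whole animals, fewer cells of a type and less RNA per cell cannot be told apart.

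Few of the replication genes cycled. The wave was called for 3 of 39 genes (7.69%), against 22.7% of all tested genes. The 3 genes, rnr-1, rnr-2 and tyms-1, all belong to nucleotide supply. Without a minimum size 8 genes passed the adjusted p (20.5%, against 34.4% of all tested genes). The median peak-to-trough difference was 0.47 log2 in the 39 genes and 0.59 log2 over all tested genes, and 35 of the 39 stayed under 1 log2.

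The fitted peaks nevertheless fell close together. Of the 39 genes, 29 (74.4%) had a fitted peak between 32 h and 34 h, against 28.7% of all tested genes. Only 8 of the 39 waves passed the adjusted p, so most of the 29 peak times belong to waves that did not. In the fit, the window from 32 h to 34 h is also 24 h to 26 h. This window was not planned, and it was the fullest of those of equal width that cover the cycle. The windows from 26 h, 28 h and 30 h held 5, 1 and 4 of the genes. The peak times of genes with small waves are loose, with standard errors of up to 1.09 h, and of 5.86 h for orc-5, and a common shift of a library moves many genes at once. In the libraries themselves, 27 of 39 genes had their highest CPM at 24 h, against 10.4% of all tested genes, and 6 had it at 26 h. With TMM-scaled library sizes 14 were highest at 24 h (35.9%, against 6.08% of all tested genes) and 13 at 26 h (33.3%, against 4.81%). On that scale the 39 genes summed to 2290 and 2466 CPM at 24 h and 26 h, and to 1643 and 2089 CPM at 32 h and 34 h. Without the 24 h library, the shallowest, 21 genes had fitted peaks between 32 h and 34 h, against 26.6% of all tested genes. Of these 21 genes, 20 were among the 29.

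From 32 h on, most of the genes were lower than 8 h before. At 26 h, 33 of 39 genes had more CPM than at 18 h, against 39.6% of all tested genes. At 32 h, 36 of the 39 had less than at 24 h, and 7.69% had more, against 36.65% of all tested genes. The median difference was -0.54 log2, against -0.13 log2 over all tested genes. At 34 h, 35 had less than at 26 h, and 10.3% had more, against 32.35% of all tested genes. The median was -0.37 log2, against -0.20 log2 over all tested genes. At 36 h, 35 of the 39 had less than at 28 h, and 10.3% had more, against 36.4% of all tested genes. There the median was -0.55 log2, against -0.18 log2 over all tested genes. With TMM-scaled sizes the 3 medians were -0.40, -0.17 and -0.35 log2 for the 39 genes, against -0.00, 0.00 and 0.02 log2 for all tested genes. The difference between 34 h and 26 h was then the smallest of them, and 11 genes were higher at 34 h (28.2%, against 50.1% of all tested genes). The lowest CPM of 28 of the 39 genes was at 36 h (71.8%, against 32.6% of all tested genes). With TMM-scaled sizes 18 were lowest there (46.2%, against 17.6%).

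**Figure D1:**
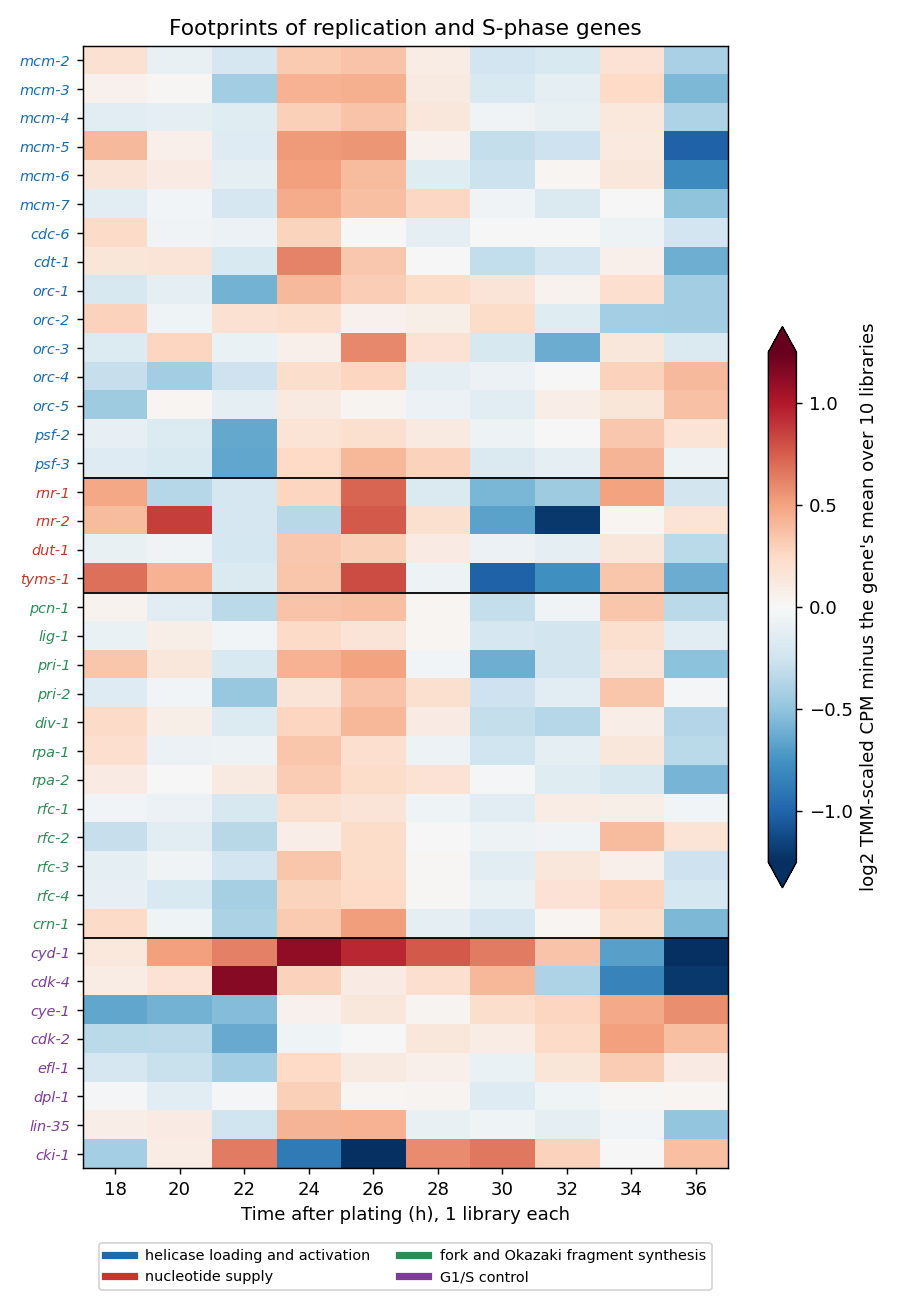
Level of each of the 39 genes (rows, by role) in each of the 10 libraries (columns, time after plating in h), as log2 TMM-scaled CPM minus the gene's own mean, with red above and blue below it. Many rows are red at 24 h and 26 h and blue at 36 h, while cye-1 and cdk-2 turn from blue to red over time and cki-1 is blue at 24 h and 26 h.

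The genes differed in how far their libraries lay apart. The highest CPM was 1.33 times the lowest for rfc-2, and the ratio was 2.65 or less for all genes but cdt-1, tyms-1, mcm-6, mcm-5, rnr-2, cki-1, cdk-4 and cyd-1. The largest ratios were 7.12 for cdk-4 and 61.5 for cyd-1, whose lowest library held 4 counts.

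Together the 39 genes held 0.218%, 0.192%, 0.193%, 0.252%, 0.244%, 0.187%, 0.181%, 0.165%, 0.179% and 0.126% of all footprints from 18 h to 36 h. The highest of these sums was 2.00 times the lowest, and 1.53 times without the 36 h library. The genes that load and activate the helicase summed to 1052 CPM at 24 h and 432 CPM at 36 h. Those of the fork summed to 900 CPM at 24 h and 436 CPM at 36 h. The sums of G1/S control genes moved least, between 119 CPM at 36 h and 175 CPM at 24 h.

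Trends over the whole course were called for 3 of the 39 genes, with 1 rise (2.56%, against 15.7% of all tested genes) and 2 falls (5.13%, against 10.8%). Cyclin E gene cye-1 rose, and the cyclin D partner cdk-4 and the thymidylate synthase gene tyms-1 fell. Without a minimum size 5 genes passed as rising (12.8%, against 22.6%) and 6 as falling (15.4%, against 18.9%). The median trend was -0.23 log2 in the 39 genes and -0.02 log2 over all tested genes. Germline markers moved the other way: 24 of 30 rose, with a median trend of 1.90 log2. Their sum was lowest at 18 h (801 CPM) and highest at 36 h (2675 CPM). Of it, glh-1 and pgl-1, singled out after the values were seen, held 477 and 420 CPM at 36 h. The markers glp-1 (0.30 ± 0.34 log2, lowest at 36 h with 27.1 CPM) and lst-1 (0.78 ± 0.21 log2) were not called, while sygl-1 was (1.20 ± 0.31 log2). Of the seam and vulva markers, genes of epidermal seam cells and of vulval cells, 6 of 14 fell and 2 rose. Their sum swung with time, at 554, 256, 468, 293, 506, 189, 335, 232, 414 and 67.1 CPM from 18 h to 36 h. On average over the libraries most of it came from wrt-2 and grd-10, singled out after their values were seen, which were called as cycling and not as falling. Of the neuron markers 8 of 12 fell, and their sum was highest at 22 h (714 CPM) and lowest at 36 h (307 CPM). The sum of the intestine markers was highest at 32 h (11470 CPM) and lowest at 36 h (5823 CPM). Of it, asp-1 alone, singled out after the values were seen, held 6618 CPM at 32 h and 2231 CPM at 36 h. The markers cpr-6 and mtl-2 were instead highest at 36 h, and no intestine marker was called as falling. None of the 30 germline markers was at 0 counts in any library, and of the seam and vulva markers nhr-73 was. The part of any of these tissues in the levels and trends of replication genes was not tested.

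**Figure D2:**
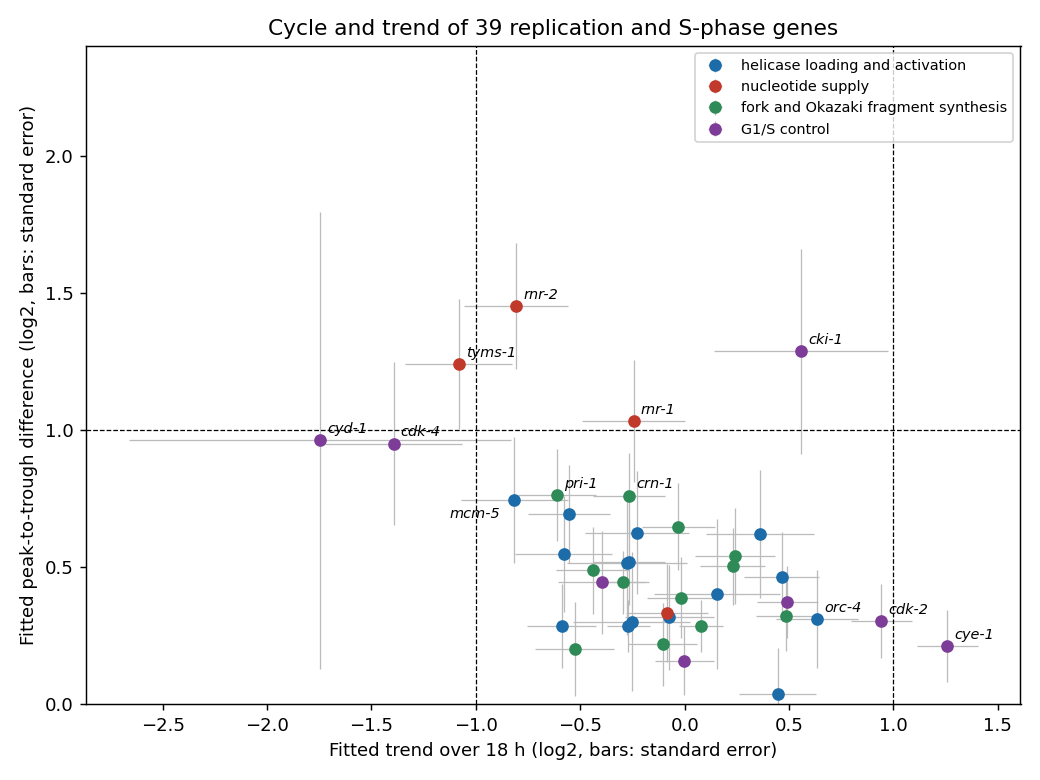
Fitted trend over 18 h (x axis, log2) and fitted peak-to-trough difference (y axis, log2) of the 39 genes, coloured by role, with standard errors as bars and dashed lines at 1 log2. The nucleotide supply genes rnr-2, tyms-1 and rnr-1 lie above the horizontal line, cki-1 lies there with an adjusted p of 0.0697, and cye-1 lies farthest to the right.

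Within nucleotide supply, ribonucleotide reductase makes deoxynucleotides from ribonucleotides and has a large subunit, encoded by rnr-1 (WBGene00004391), and a small one, encoded by rnr-2 (WBGene00004392). From 18 h to 36 h, rnr-1 ran at 171, 88.5, 115, 152, 188, 96.3, 86.2, 84.3, 140 and 80.8 CPM. It was high at 18 h, at 24 h and 26 h, and at 34 h, and at most 115 CPM in the other libraries. The fitted wave was 1.03 ± 0.22 log2 with a peak at 33.7 ± 0.278 h (SE, edgeR adjusted p = 0.0192).

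For rnr-2 the levels were 219, 282, 158, 136, 264, 171, 110, 68.2, 137 and 146 CPM at the same times. Its high libraries were those at 20 h and 26 h, its lowest was at 32 h, and at 34 h and 36 h it regained only part of its level. The wave was 1.45 ± 0.23 log2 with a peak at 27.2 ± 0.198 h (edgeR adjusted p = 0.00724). Per kb of coding length, rnr-2 footprints exceeded those of rnr-1 in every library, by 1.67 times at 32 h and 6.61 times at 20 h, and the ratio was above 3 at 20 h, 28 h and 36 h, which are 8 h apart.

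Thymidylate synthase, the enzyme that makes the thymine nucleotide, is encoded by tyms-1 (WBGene00022455). Its levels were 69.1, 53.8, 41.1, 56.5, 70.3, 36.8, 22.3, 23.8, 44.0 and 21.8 CPM from 18 h to 36 h. Peaks at 18 h, 26 h and 34 h repeated on a lower base, and the values from 28 h on, apart from 34 h, lay below all earlier ones. The wave was 1.24 ± 0.24 log2, peaking at 26.1 ± 0.242 h (edgeR adjusted p = 0.0131), and the trend was -1.08 ± 0.26 log2 (edgeR adjusted p = 0.0123). The fourth gene, dut-1, whose product clears dUTP, ran between 21.3 CPM (36 h) and 45.1 CPM (24 h), with a wave of 0.33 ± 0.18 log2.

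Some of these calls rest on single libraries. Without the 30 h library the adjusted p was 0.0619 for tyms-1 (1.13 log2) and 0.0681 for rnr-1 (1.03 log2). The rnr-1 wave was also not called without the library at 20 h (0.996 log2, edgeR adjusted p = 0.0201), 26 h (0.88 log2, adjusted p = 0.0588) or 34 h (0.95 log2, adjusted p = 0.0652); the first of these missed by size alone. The tyms-1 trend was not called without the library at 22 h (-0.97 log2), 32 h (-0.88 log2) or 36 h (-1.001 log2, adjusted p = 0.0618). The trend of rnr-2, -0.81 ± 0.25 log2, was called without the 18 h library, at -1.10 log2. Other settings mattered too. With library totals alone the rnr-1 wave was 0.90 log2 and was not called. Nor was it called with a filter at a mean of 50 counts, with the deposited log2 values or with a 7.5 h period. The tyms-1 wave was not called with the deposited values either. With cycle terms alone rnr-1 was the only gene of the 39 called.

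**Figure D3:**
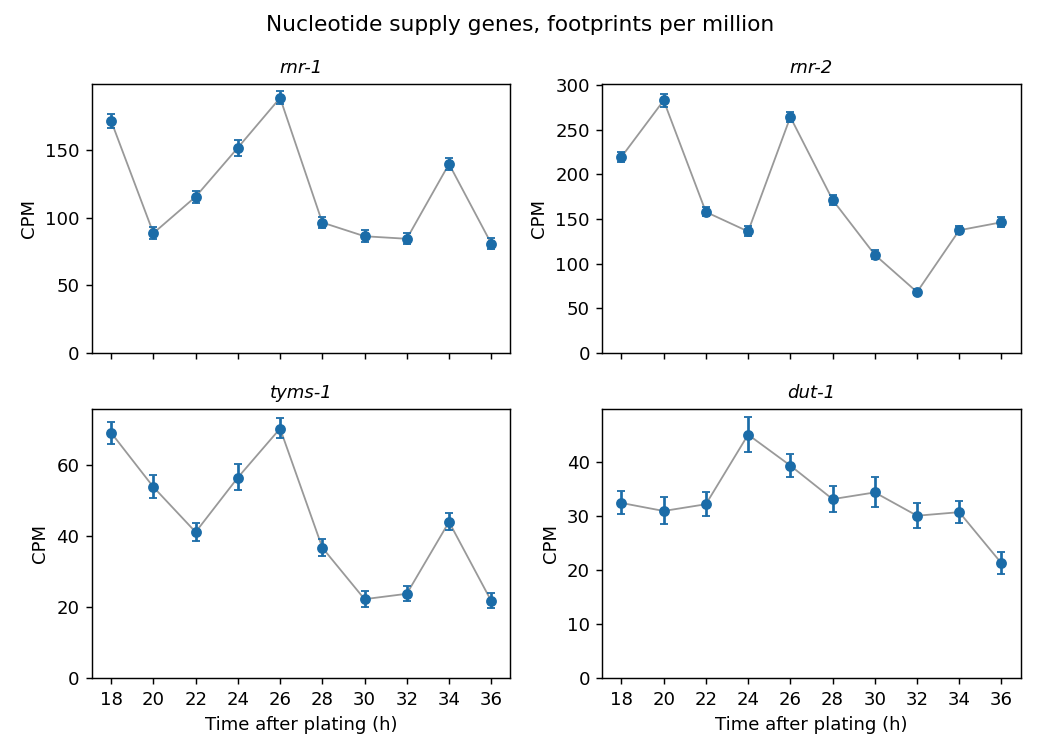
Footprint levels (CPM, y axis from 0) of 4 nucleotide supply genes against time after plating (h). Points are single libraries and bars are 95% Poisson intervals, which cover counting error only. Both rnr-1 and tyms-1 show maxima at 18 h, 26 h and 34 h, rnr-2 is highest at 20 h and 26 h, and dut-1 has its maximum at 24 h.

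Other genes of nucleotide synthesis, from a list of replication genes outside the 39, had waves of very different size. The pyrimidine synthesis genes pyr-1 (WBGene00004259), for the enzyme of the first steps, and umps-1 (WBGene00011559), for that of the last, differed by 2.87 ± 0.31 and 2.59 ± 0.24 log2 (edgeR adjusted p = 0.00266 and 0.00148). Their fitted peaks lay at 27.5 ± 0.135 h and 28.2 ± 0.117 h. Levels of pyr-1 were 315, 881, 237, 109, 628, 721, 231, 156, 339 and 598 CPM from 18 h to 36 h. The high libraries were those at 20 h, 26 h, 28 h and 36 h and the low ones those at 24 h and 32 h. The serine hydroxymethyltransferase gene mel-32 (WBGene00003214), of the folate cycle that serves thymidylate synthesis, had a wave of 1.02 ± 0.15 log2 that peaked at 33.9 ± 0.186 h (adjusted p = 0.00550). The nucleoside diphosphate kinase gene ndk-1 had a wave of 0.53 ± 0.14 log2, which was not called (adjusted p = 0.0612). The dihydrofolate reductase gene dhfr-1 differed by 0.08 ± 0.11 log2 (adjusted p = 0.809). In that list 5 of 30 tested genes were called as cycling (22.7% of all tested genes), namely pyr-1, umps-1, mel-32, psf-1 and gmn-1.

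The MCM2-7 helicase, a ring of 6 related ATPases that unwinds DNA, was among the complexes with more footprints per length. Per kb of coding length its genes averaged between 30.5 CPM (mcm-5) and 55.1 CPM (mcm-7) over the 10 libraries. The highest subunit exceeded the lowest by 1.56 times at 18 h, by 1.80 times in the median library and by 2.63 times at 36 h. Levels of mcm-7 (WBGene00003159) were 114, 113, 118, 178, 151, 134, 127, 103.5, 101.1 and 68.3 CPM from 18 h to 36 h. The highest was at 24 h, and each later CPM lay below the one before it, although with TMM-scaled sizes the level at 34 h lay above that at 32 h. An 8 h wave of 0.30 ± 0.25 log2 was not called (edgeR adjusted p = 0.617).

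For mcm-5 (WBGene00003157) the levels were 92.6, 67.8, 68.2, 103.98, 94.8, 64.6, 59.4, 55.0, 61.1 and 27.02 CPM. The value at 36 h lay below every other, and that at 24 h was 3.85 times as high. Its trend of -0.82 ± 0.26 log2 passed the adjusted p (0.0410) under the size required, and was -1.11 log2, a call, without the 18 h library. Of the others, mcm-2 ran between 82.0 and 181 CPM, mcm-3 between 52.1 and 138 CPM, mcm-4 between 62.6 and 133 CPM and mcm-6 between 38.6 and 128 CPM. In each of these genes the 36 h library was the lowest. The remaining MCM genes had trends of -0.55 to -0.07 log2, and all 6 were highest at 24 h and lowest at 36 h in CPM. With TMM-scaled sizes all 6 were still lowest at 36 h, but mcm-2, mcm-3, mcm-4 and mcm-5 were highest at 26 h. The margin was small, as for mcm-2 with 165 CPM at 24 h and 168 CPM at 26 h. The wave passed the adjusted p for mcm-6 (0.69 ± 0.18 log2, adjusted p = 0.0429), at a size under 1 log2.

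Factors that load and activate the helicase had fewer footprints per length. The 5 ORC genes, whose products mark origins, averaged between 6.64 CPM per kb (orc-3) and 15.3 CPM per kb (orc-2). The loaders cdc-6 and cdt-1 stood at 17.9 and 12.4 CPM per kb, and the GINS genes psf-2 and psf-3 at 22.1 and 10.8 CPM per kb. Trends inside ORC pointed both ways: orc-2 changed by -0.59 ± 0.17 log2 (edgeR adjusted p = 0.0234) and orc-4 by 0.63 ± 0.20 log2 (adjusted p = 0.0341), both under 1 log2. In the Ensembl annotation orc-1 and orc-4 are neighbours on the same strand. In CPM, orc-1 was lowest at 36 h (11.8 CPM) and orc-4 at 20 h (6.12 CPM). With TMM-scaled sizes orc-1 was lowest at 22 h (12.9 CPM) and orc-4 still at 20 h (6.20 CPM). The remaining origin genes orc-3 and orc-5 ran between 7.75 and 17.9 CPM and between 8.12 and 12.3 CPM. The wave of orc-5, 0.04 ± 0.17 log2, was the smallest of the 39. Neither cdc-6 (19.1 to 36.5 CPM) nor cdt-1 (13.3 to 41.6 CPM) was called, and both were highest at 24 h and lowest at 36 h. GINS completes the active helicase. Its genes among the 39 were instead lowest at 22 h, psf-2 with 8.78 CPM and psf-3 with 4.55 CPM. They were highest at 24 h (psf-2, 14.7 CPM) and 26 h (psf-3, 8.10 CPM). With TMM-scaled sizes both were still lowest at 22 h but highest at 34 h (14.9 and 8.22 CPM). The GINS genes outside the 39 differed, with psf-1 lowest at 30 h (7.94 CPM) and sld-5 at 34 h (12.7 CPM). The psf-1 wave was called (1.12 ± 0.26 log2) and the sld-5 wave was not (0.05 ± 0.10 log2).

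At the fork, the gene with the most footprints per length was pcn-1 (WBGene00003955), which encodes PCNA, with 179 ± 37.4 CPM per kb (SD over the 10 libraries). Its levels were 151, 125, 127, 195, 178, 134, 126, 134, 151 and 90.8 CPM. The high libraries were those at 24 h and 26 h and the low one at 36 h, with smaller highs at 18 h and 34 h. The wave of 0.65 ± 0.16 log2 passed the adjusted p (edgeR, 0.0353) under the size required, and the trend was -0.03 ± 0.17 log2. The same held for waves of the flap endonuclease gene crn-1 (0.76 ± 0.16 log2, adjusted p = 0.0169) and the single-strand binding protein gene rpa-1 (0.44 ± 0.11 log2, adjusted p = 0.0412). It held too for the primase subunit gene pri-1 (0.76 ± 0.17 log2, adjusted p = 0.0241). The 4 peaks lay between 33.1 h and 33.6 h.

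Levels of pri-1 (WBGene00004180) were 25.9, 20.9, 19.5, 28.5, 26.8, 17.8, 13.97, 16.4, 18.4 and 11.1 CPM from 18 h to 36 h. It had the largest trend of the fork genes, -0.61 ± 0.19 log2 (edgeR adjusted p = 0.0335). Its partner pri-2 had a trend of 0.24 ± 0.19 log2, and per kb the pri-2 footprints were 0.751 times those of pri-1 at 18 h and 1.52 times at 36 h. Over all libraries pri-1, pri-2 and div-1, the last a subunit of the polymerase that carries primase, were close, at 16.2, 16.8 and 17.5 CPM per kb.

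The clamp loader RFC showed unequal subunits. Its small subunit genes rfc-2, rfc-3 and rfc-4 averaged 30.9, 23.7 and 27.3 CPM per kb, with ratios of the highest to the lowest of 1.10 at 24 h to 1.78 at 36 h. The large subunit gene rfc-1 averaged 11.1 CPM per kb, below each small one in all 10 libraries. Trends of the loader genes ran from -0.02 ± 0.16 log2 (rfc-3) to 0.48 ± 0.14 log2 (rfc-2, edgeR adjusted p = 0.0268). The rfc-2 libraries were the closest together, between 26.9 and 35.9 CPM. In CPM rfc-2 was lowest at 18 h and the other RFC genes at 36 h. With TMM-scaled sizes rfc-1, rfc-2 and rfc-4 were lowest at 22 h and rfc-3 at 36 h. Of the RPA genes, rpa-2 exceeded rpa-1 per kb by 1.81 times at 34 h and 2.73 times at 28 h. Both were highest at 24 h, with 181 CPM for rpa-2 and 184 CPM for rpa-1, and lowest at 36 h, with 73.5 and 85.9 CPM. DNA ligase gene lig-1 had 13.6 ± 2.01 CPM per kb and ranged from 23.5 to 40.4 CPM. Coding lengths were those of the longest coding transcript, so a gene translated mainly from a shorter one would be understated.

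**Figure D4:**
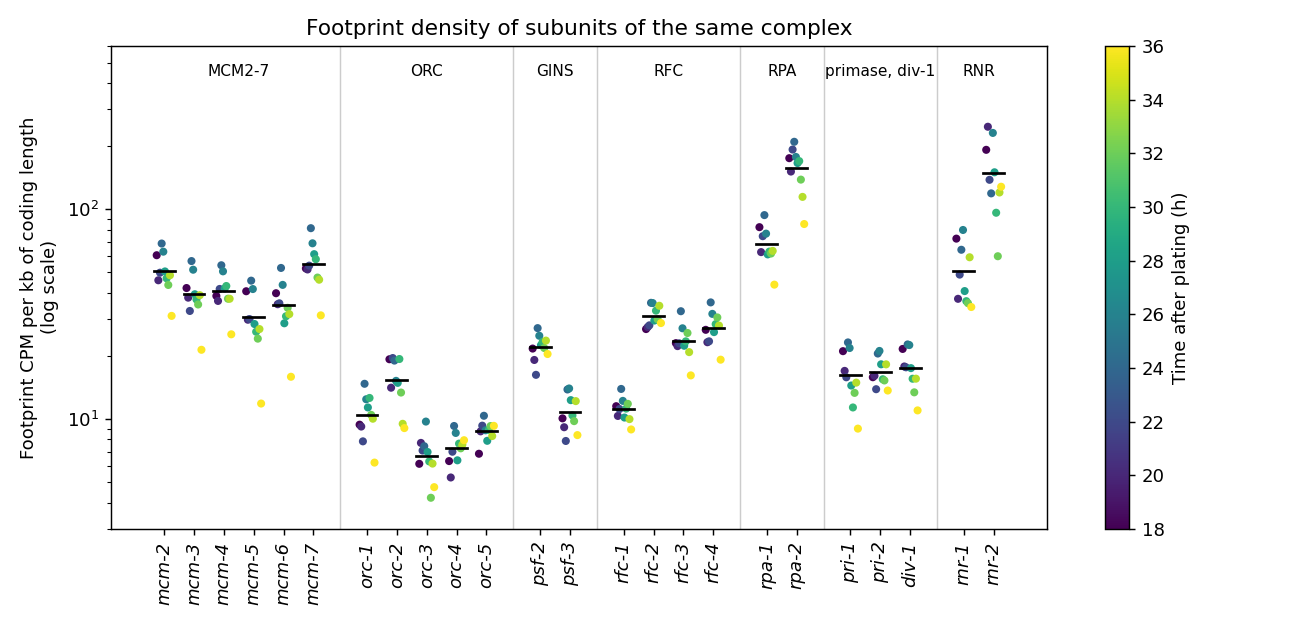
Footprint CPM per kb of coding length (y axis, log scale) for subunits of 7 complexes. Each point is 1 library coloured by its time after plating (h), and bars are means over the 10 libraries. The MCM genes lie close together at 30.5 to 55.1, rfc-1 lies below rfc-2, rfc-3 and rfc-4, and rnr-2 lies above rnr-1.

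Among G1/S control genes, the pair of cyclin D and CDK-4 and that of cyclin E and CDK-2 had trends of opposite sign. Cyclin D gene cyd-1 (WBGene00000870), needed to start larval divisions, had 6.13, 7.35, 9.40, 12.4, 9.94, 8.46, 9.16, 6.70, 2.81 and 0.202 CPM from 18 h to 36 h. It was highest at 24 h, and the levels at 34 h and 36 h lay below all others. The last libraries held 80 counts at 34 h (95% Poisson interval 2.23 to 3.49 CPM) and 4 counts at 36 h (0.0551 to 0.518 CPM), and the intervals cover counting error only. The straight trend of -1.75 ± 0.92 log2 was not called (edgeR adjusted p = 0.238). With a quadratic time term added, the linear term was -2.19 log2 and was called (adjusted p = 0.0150). Without the 36 h library the straight trend was -0.59 log2 (adjusted p = 0.539). The level at 36 h rests on 1 library with no replicate.

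The cyclin D partner cdk-4 (WBGene00000406) had 5.80, 5.71, 12.96, 6.82, 5.40, 5.62, 7.59, 3.90, 2.46 and 1.82 CPM. It was highest at 22 h, with a smaller high at 30 h, and the values at 34 h and 36 h lay below all earlier ones. Its trend was -1.39 ± 0.33 log2 (edgeR adjusted p = 0.0125), and without the 36 h library it was -1.02 log2 and not called (adjusted p = 0.0576). The wave of 0.95 ± 0.30 log2 was not called (adjusted p = 0.0725), but it was without the 26 h library (1.199 log2, adjusted p = 0.0387).

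Cyclin E gene cye-1 (WBGene00000871), which drives S phase with CDK-2, had 13.9, 13.4, 16.2, 23.3, 22.3, 19.9, 26.6, 24.6, 24.4 and 25.29 CPM. The 3 earliest libraries lay below all 7 later ones. The trend was 1.26 ± 0.15 log2, or 2.39-fold (edgeR adjusted p = 0.000249), while the wave was 0.21 ± 0.13 log2. With library totals in place of TMM factors the trend was 0.95 log2 and, falling short of the size required, was not called, when the median of all tested genes was -0.33 log2. The deposited log2 values likewise gave 0.93 log2 and no call. Its partner cdk-2 (WBGene00019362) had 7.65, 7.09, 6.79, 9.57, 8.93, 9.53, 10.7, 10.7, 11.1 and 9.71 CPM. The cdk-2 trend of 0.94 ± 0.15 log2 passed the adjusted p (0.00132) just under the size required, and was 1.03 log2, a call, without the 36 h library. Per kb, cye-1 exceeded cyd-1 by 1.33 times at 22 h, 2.84 times at 32 h, 6.71 times at 34 h and 96.6 times at 36 h, where cyd-1 had 4 counts. The difference between the pairs was not tested.

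The CDK inhibitor gene cki-1 (WBGene00000516), which holds cells in G1, ran against most of the other genes. Its levels were 17.2, 22.8, 39.4, 12.98, 8.40, 31.3, 38.4, 26.6, 18.7 and 23.3 CPM from 18 h to 36 h. The high libraries were those at 22 h and 30 h, 8 h apart, and the lowest were those at 24 h and 26 h, where 33 of the 39 genes had their highest CPM. The fitted wave was 1.29 ± 0.38 log2, peaking at 29.4 ± 0.379 h, and missed the threshold (edgeR adjusted p = 0.0697). DESeq2's likelihood-ratio test called it (1.3002 log2, adjusted p = 0.0169). The related inhibitor gene cki-2, outside the 39, was likewise high at 22 h and 30 h, with 18.0 and 22.6 CPM. Unlike cki-1, it was lowest at 18 h (7.11 CPM), and it stood at 10.5 and 8.07 CPM at 24 h and 26 h. Its trend of 1.27 ± 0.20 log2 was called (edgeR adjusted p = 0.00142).

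The transcription factors of the pathway had no called change, with trends under 1 log2. The E2F gene efl-1 had a trend of 0.49 ± 0.15 log2 (edgeR adjusted p = 0.0283) and stayed between 13.9 and 22.4 CPM. Its dimer partner dpl-1 stayed between 23.9 and 38.4 CPM, with a trend of -0.00 ± 0.14 log2. The retinoblastoma gene lin-35 was highest at 24 h (49.2 CPM) and lowest at 36 h (19.5 CPM), with a trend of -0.40 ± 0.21 log2 (adjusted p = 0.177). Another E2F family gene, efl-3 (WBGene00009899), which is not among the 39, was called as cycling by 2.00 ± 0.31 log2 with a peak at 27.5 ± 0.196 h (adjusted p = 0.00790).

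**Figure D5:**
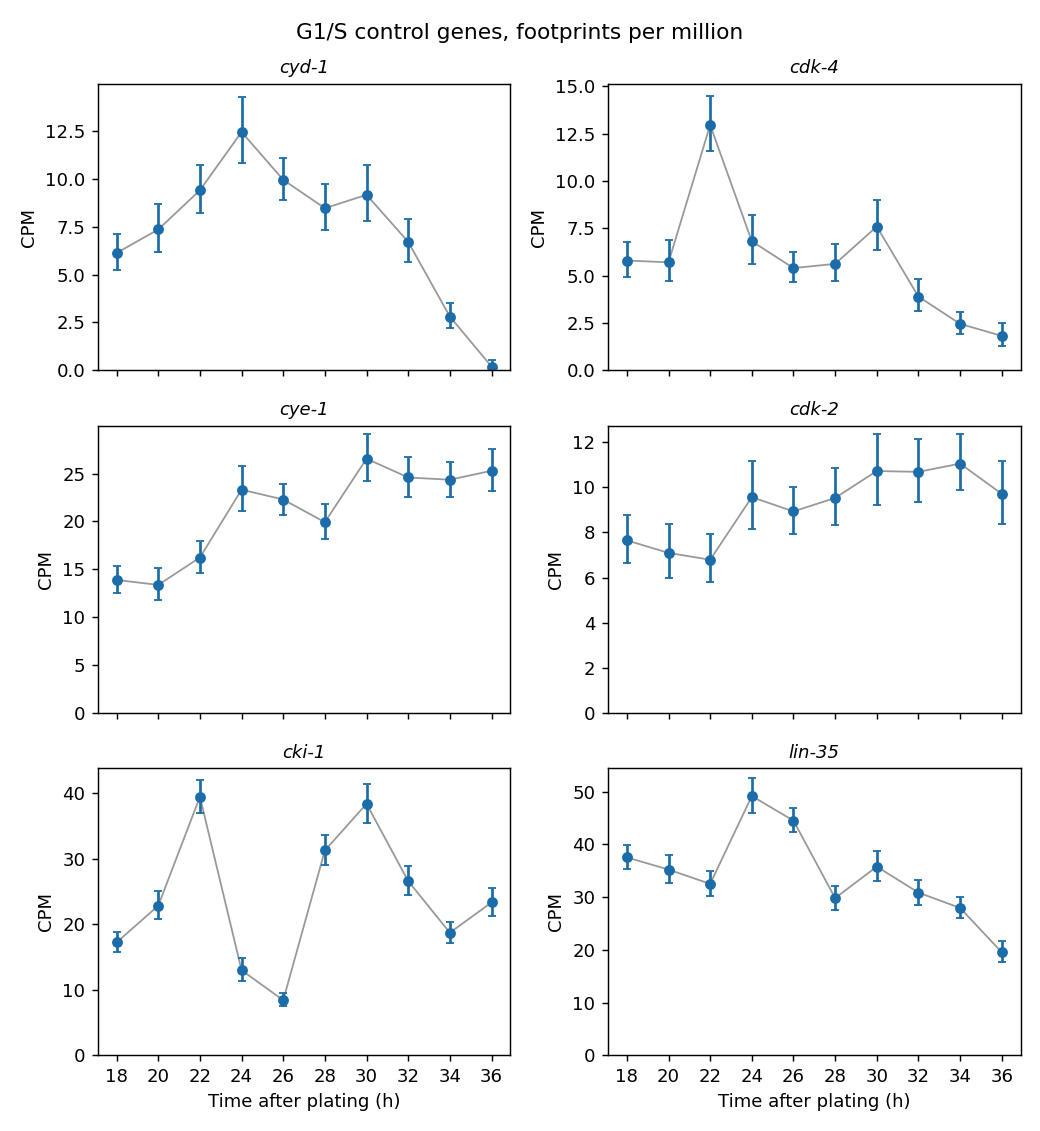
Footprint levels (CPM, y axis from 0) of 6 G1/S control genes against time after plating (h), with single libraries as points and 95% Poisson intervals, counting error only, as bars. The cyclin D pair cyd-1 and cdk-4 ends at 0.202 and 1.82 CPM, the cyclin E pair cye-1 and cdk-2 ends above its start, and cki-1 has highs at 22 h and 30 h.

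Genes of the same pathway outside the 39 are described by their counts, and no list was tested against another. Of the other G1/S and S-phase control genes 7 of 34 tested rose, against 15.7% of all tested genes. Among the 7 were cki-2 and the checkpoint kinase gene chk-2 (2.70 ± 0.27 log2). The replication licensing inhibitor geminin, gene gmn-1 (WBGene00013552), both cycled (1.36 ± 0.20 log2, peak at 27.1 ± 0.187 h) and rose (1.51 ± 0.22 log2, edgeR adjusted p = 0.000819). At 18 h, 26 h and 34 h its levels were 10.8, 18.7 and 30.3 CPM. Of the mitosis genes 6 of 50 tested rose, and 22 did with no minimum size (15.7% and 22.6% of all tested genes). The mitotic cyclin gene cyb-1 had 26.2 CPM at 18 h and 71.4 CPM at 36 h, a trend of 1.62 ± 0.20 log2 (adjusted p = 0.000370). The median trend was 0.40 log2 over the mitosis genes tested, against -0.23 log2 over the 39.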

How the data were processed

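Ribosome footprints of whole N2 worms were measured in 10 libraries, 1 per time. The authors deposited raw counts per gene. They also deposited log2 values, which were checked to be log2 of the counts scaled to the mean library total with 8 added (largest difference 5e-05). Bowtie is named, per the submitters' processing notes, while build, annotation and counting rule remain not given in the sources used here. Symbols, coding lengths and neighbours come from the Ensembl annotation of WBcel235, which held 19513 of 20182 identifiers. No coordinates are given.

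Genes entered the test if at least 3 libraries had a CPM equal to 10 counts, taken at the median library total, or more. The edgeR model (4.0.16, R 4.3.3, legacy quasi-likelihood, robust) combined a constant, a line in time and an 8 h wave (cosine and sine), leaving 6 residual degrees of freedom. P-values were adjusted by Benjamini-Hochberg over 13958 genes. Standard errors of waves and peak times used the delta method. The fit was tested on simulated data. DESeq2 1.42.0 and limma 3.58.1 were alternatives, and figures used matplotlib 3.10.9. Comparisons over 8 h added 0.1 CPM before the log2.

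The genes and lists were chosen with earlier results of these data known. Levels in every library are given for genes called by either test and, in each role group, for the gene most abundant per length and those with the largest wave and trend. The cdk-2 levels, the peak window from 32 h to 34 h, the comparisons over 8 h and the highest and lowest libraries were chosen after the values were seen. Of 37 other replication, 36 control and 54 mitosis genes listed, 30, 35 and 52 were found, and of the intestine markers 14 of 15.

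Of the intestine markers 5 of 14 cycled, against 22.7% of all tested genes. Of the body-wall muscle markers 1 of 10 fell, near the 10.8% of all tested genes that fell. Planned counts of promoter and protein motifs were not run, as no sequences were used here.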

Additional observations from a re-analysis of the deposited data

How the results depend on the processing

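Single libraries without replicates limit every result here. The count of cycling genes (3) was 8 with no minimum size and 1 with cycle terms alone, and 1 to 3 when each library was left out in turn. The count of genes with a trend (3) was 11 with no minimum size and 1 with the line alone, and 2 to 5 when each library was left out. The highest of the summed levels was 2.00 times the lowest on library totals and 1.62 times with TMM-scaled sizes. With library totals alone, 4 genes cycled (rnr-2, tyms-1, cdk-4 and cki-1) and 4 fell (mcm-5, rnr-2, tyms-1 and cdk-4). Under that scaling the median trend of all tested genes was -0.33 log2, and -0.02 log2 with TMM. The causes of these differences were not tested. Fitted peaks from 32 h to 34 h numbered 21 to 31 over the settings with the 8 h period. The called trends of cye-1, cdk-4 and tyms-1 kept their sign in all settings run. Of the values of single genes under other settings 549 kept their side of the threshold, 28 passed it newly and 21 lost it. Only values called in the main fit could lose it, and the 549 include values not called there. Of 23 other settings, the wave call held in 15 for rnr-1, 22 for rnr-2 and 20 for tyms-1. The trend call held in 18 for tyms-1 and in 21 each for cdk-4 and cye-1. Part of the 28 came from the setting with no minimum size, which asks less of a call. No paired analysis was possible because each time has 1 library and no replicate numbers pair them. The newer quasi-likelihood method was added after the data had been seen.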
